A study of Caenorhabditis elegans with 15 samples.

Results

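The furrow collagens, cuticlins and molting matrix genes described here are 64 of the 46904 genes in the deposited count tables of Caenorhabditis elegans. They were chosen by name: every gene called cut, cutl, noah, mlt or sqt with a number, and 16 collagen genes, namely dpy-2, dpy-3, dpy-4, dpy-5, dpy-7, dpy-8, dpy-9, dpy-10, dpy-13, dpy-14, dpy-17, rol-6, bli-1, bli-2, bli-6 and lon-3. They were sorted by role into 6 furrow collagens, 10 other collagens of body shape, 3 blister collagens, 6 cuticlins (cut), 29 cuticlin-like genes (cutl), 2 noah genes and 8 mlt genes. The rule names genes and uses no measured value, and it was set with earlier results of these data known.

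The nematode cuticle is an extracellular coat that the epidermis secretes anew before each molt. Collagens form most of it. The furrow collagens mark the circular grooves of its surface, the blister collagens belong to the struts between the layers of the adult cuticle, and the other collagens here are named for the short (dpy), long (lon), rolled (rol) or squat (sqt) body of their mutants. Cuticlins are insoluble cuticle proteins, many with a zona pellucida domain, and the noah genes encode zona pellucida proteins of the temporary coat that links epidermis and cuticle while a new cuticle is laid down. The mlt genes were named for mutants that fail to shed the old cuticle. Adult worms have finished molting.

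RNA of whole adult worms grown on solid medium was sequenced in 15 libraries, 3 for each of 5 genotypes. WT was the N2 strain, fbf-2 and fbf-1 were strains mutant in one of a pair of closely related PUF family RNA-binding proteins of the germline, 3xlnc carried mutations in the long intergenic noncoding RNA genes linc-4, linc-29 and linc-7, and fbf-1 3xlnc combined the fbf-1 mutation with those 3. The labels name no alleles and give no age beyond adult. They leave unsaid if replicate libraries stem from different cultures; the p-values below therefore describe how these libraries vary, part of which may be technical variation. The RNA is labelled as total for the first 3 of these genotypes and as polyA for both fbf-1 strains, although one mRNA kit is given for all. Levels are set side by side across that line without a test, since genotype and RNA label cannot be told apart.

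Libraries held 9068700 to 38453738 counts, and the 64 genes took 3629 to 13134 of them. WT library 1 was the shallowest and had the highest share of ribosomal RNA, 4.62%. The targeted genes followed the labels: linc-4, linc-7 and linc-29 had 0 counts in each of the 6 linc mutant libraries, where a floor of 3 counts was at most 0.173 CPM (counts per 1000000 counts of the library), the fbf-2 transcript was at 6.10 to 7.30 CPM in fbf-2 against 26.0 to 32.1 in WT, and the fbf-1 transcript was at 7.80 to 8.57 CPM in the fbf-1 strains against 35.4 to 39.8 in WT. Summed markers of adult cuticle (col-7, col-19, col-62) were at 1292 to 2462 CPM over the 15 libraries, those of epidermis at 185 to 241 CPM, yolk genes at 48204 to 126451 CPM, and early embryonic genes at 3.23 to 11.1 CPM. No gene of the 8 marker lists other than sperm was at 0 in every library. In whole worms, fewer cells of a type and less RNA per cell cannot be told apart.

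Of the 64 genes, 44 had enough counts to be tested in all 3 comparisons with a control, 5 in 2 of them, 1 (cut-6) in 1, and 14 in none. The 14 were cut-1, cut-5 and 12 cutl genes, with 0 to 13 counts in a library and at most 0.662 CPM. All 19 collagens, both noah genes and all 8 mlt genes were tested in every comparison. An adjusted p under 0.05 was reached by 25 of the 64 in at least 1 of the 3 comparisons, 19 of them in 1 and 6 in 2. The 64 include the 14 that were never tested. How many of all genes reached it in at least 1 comparison was not computed. Taken singly, the comparisons called 2.11% to 10.1% of all genes tested lower and 5.51% to 9.43% higher.

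The genes lie on all 6 chromosomes, with 19 on chromosome II and 5 on chromosome III. Exons of 25 members overlap those of another annotated gene. For 3 of them the partner is a protein-coding gene on the same strand: dpy-10 shares 780 of its 1593 exonic bases with T14B4.19, mlt-10 shares 109 bases with lips-7, and cutl-20 shares 221 bases with shc-1. For 19 members the partner is on the opposite strand, over 147 bases or fewer. Whether counting used strand is not stated in the sources at hand, and the counts of such genes are uncertain over the shared bases.

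Per kilobase of exon, the order of the levels differed between genotypes. In WT the highest mean levels were those of dpy-17, a collagen that worm genetics ties to the secretion of SQT-3, at 26.6 ± 9.22 CPM per kb (SD, n = 3), of sqt-3 at 25.7 ± 6.21 and of dpy-14, a collagen known for its role in the embryo, at 23.5 ± 7.54. These 3 did not differ beyond their spread. In 3xlnc the first places went to dpy-4 at 47.7 ± 1.25 CPM per kb, the strut collagen gene bli-6 at 47.3 ± 8.31 and dpy-13 at 40.5 ± 3.88, while dpy-17 stood at 16.6 ± 6.40. In fbf-2 bli-6 (16.3 ± 4.05 CPM per kb) and sqt-3 (15.9 ± 2.57) led, in fbf-1 dpy-4 (25.2 ± 8.76) and dpy-13 (25 ± 7.93), and in each of these pairs the levels were closer than their spread. In fbf-1 3xlnc mlt-7, which encodes a peroxidase of cuticle assembly, was first at 14.3 ± 0.785 CPM per kb, which bli-6 at 13.7 ± 7.12 did not differ from beyond its spread, and dpy-4 was at 8.34 ± 10.9, an SD above its mean.

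**Figure D1:**
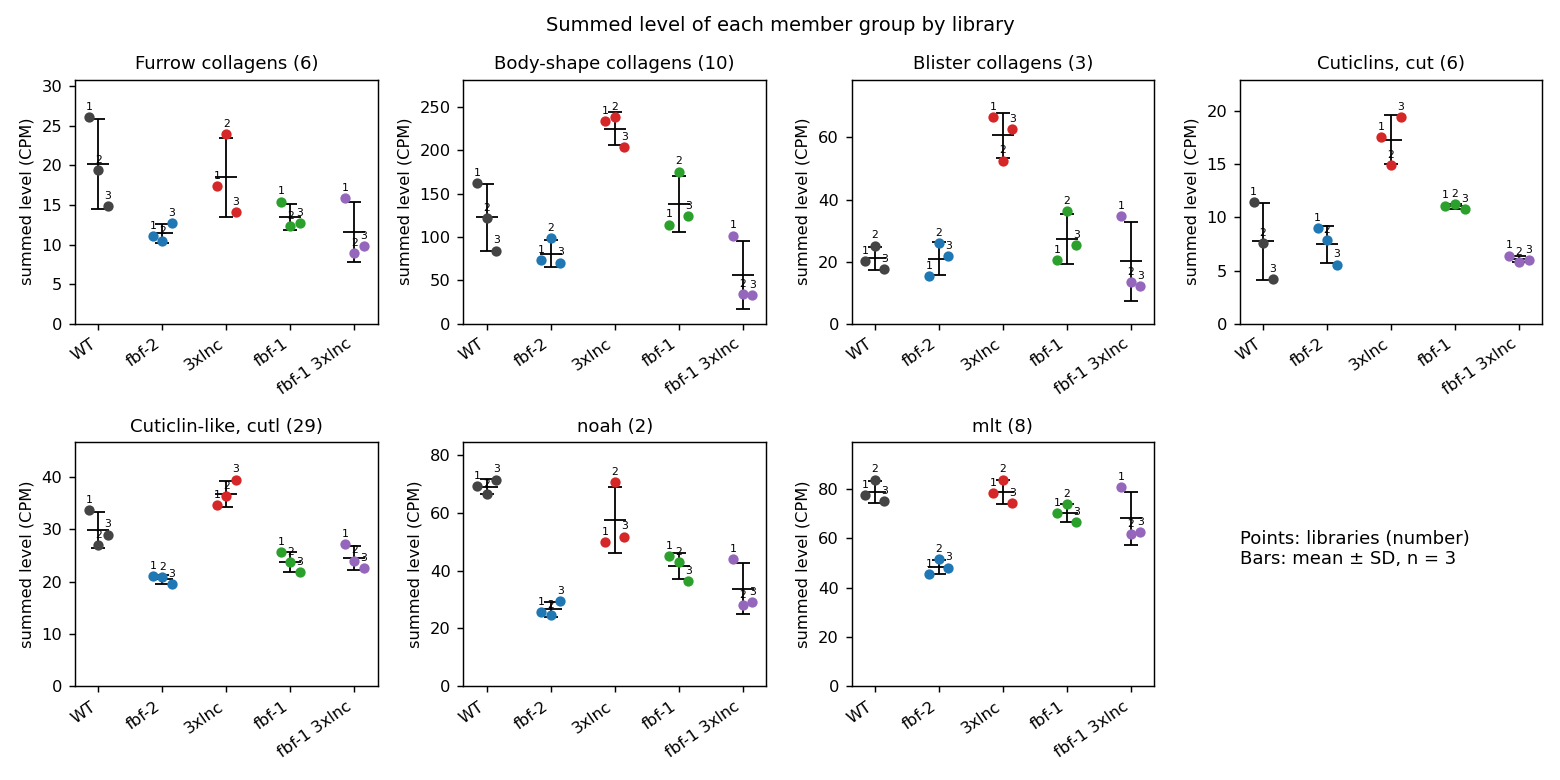
Summed level in CPM (vertical axes, from 0) of the members of each role in every library (points, with the library number), with the mean ± SD of 3 libraries per genotype. The noah sum was 24.7 to 29.5 CPM in the 3 fbf-2 libraries against 66.3 to 71.4 in WT, the body-shape collagens summed to 203 to 239 CPM in 3xlnc against 84.3 to 162 in WT, and library 1 of fbf-1 3xlnc stood above the other two for the collagens.

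The first comparison asked what differs in worms mutant in fbf-2. The noah genes, 2 of 8 mlt genes and 3 of 6 furrow collagens fell in fbf-2, together with dpy-14, dpy-17 and sqt-3. Of 46 members tested against WT, 13 fell and 1 rose at an adjusted p under 0.05 (edgeR quasi-likelihood test), where 10.1% of all 13401 genes tested fell and 5.51% rose. The median log2 fold change of the 46 was -0.54, and that of all genes tested was -0.04. Upper-quartile scaling gave 1682 falls and 449 rises over all genes, against 1357 and 738 here. Groups did not overlap for 19 members that were lower and 2 that were higher, against 15% and 24.7% of all genes.

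Both noah genes were low in every fbf-2 library. noah-1 stood at 41.5, 39.2 and 42.0 CPM in the WT libraries and at 12.7, 13.3 and 17 CPM in the fbf-2 libraries. noah-2 (chromosome IV, 14091254 to 14096626, plus strand, WBcel235) stood at 27.8, 27.1 and 29.4 CPM in WT and at 12.9, 11.4 and 12.5 CPM in fbf-2. The groups were apart by more than their spread for each gene, with a log2 fold change of -1.64 ± 0.15 (SE, adjusted p = 0.000445) for noah-1 and of -1.32 ± 0.12 (adjusted p = 0.000419) for noah-2.

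Among the mlt genes, mlt-11, whose product carries Kunitz protease inhibitor domains, was at 16.1, 23.5 and 18.5 CPM in WT and at 4.51, 4.85 and 8.67 CPM in fbf-2. mlt-7 was at 34.3, 33.6 and 34.7 CPM in WT and at 15.7, 21.4 and 14.4 CPM in fbf-2. Neither gene's groups overlapped, and both fell, mlt-11 by 1.82 on the log2 scale (SE 0.29, adjusted p = 0.00557) and mlt-7 by 1.14 (SE 0.15, adjusted p = 0.00228). mlt-3, which encodes an ankyrin repeat protein of a trafficking complex needed for molting, was the 1 member that rose, from 6.51, 5.71 and 4.57 CPM to 9.65, 8.33 and 9.37 CPM (log2 fold change 0.59 ± 0.16, adjusted p = 0.0421). The other 5 mlt genes did not pass the test.

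All 6 furrow collagens had a fitted fold change below 0. dpy-3 was at 3.75, 2.66 and 2.66 CPM in WT and at 0.835, 0.763 and 0.974 CPM in fbf-2, dpy-7 at 3.09, 2.61 and 1.71 against 0.835, 1.36 and 1.07 CPM, and dpy-10 at 9.70, 6.73 and 6.63 against 5.35, 3.76 and 5.43 CPM. These 3 fell, by 1.90 (SE 0.24, adjusted p = 0.00184), 1.29 (SE 0.30, adjusted p = 0.0223) and 0.76 (SE 0.20, adjusted p = 0.0392) on the log2 scale, with no overlap between groups. dpy-2, dpy-8 and dpy-9 did not pass. dpy-2 was at 5.62, 3.34 and 2.31 CPM in WT and at 2.21, 1.85 and 2.55 CPM in fbf-2, where the groups overlapped (log2 fold change -0.82 ± 0.30, adjusted p = 0.0979). dpy-8 ranged from 0.452 to 2.21 CPM in WT and from 0.459 to 1.14 in fbf-2 (adjusted p = 0.397), and dpy-9 from 1.1 to 2.47 and from 1.42 to 1.58 CPM (adjusted p = 0.431).

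The 10 other body-shape collagens divided. dpy-14 was at 33.2, 17.4 and 23.7 CPM in WT and at 12.1, 8.01 and 8.07 CPM in fbf-2, dpy-17 at 41.4, 22.7 and 24.7 against 15.9, 11.1 and 11.4 CPM, and sqt-3 at 46.1, 35.1 and 28.6 against 24.2, 25.2 and 18.5 CPM. All 3 fell without overlap, by 1.5 (SE 0.23, adjusted p = 0.00392), 1.30 (SE 0.21, adjusted p = 0.00623) and 0.81 (SE 0.16, adjusted p = 0.0143) on the log2 scale. The other 7 did not pass the test, and their fitted changes lay on both sides of 0, as did those of the 3 blister collagens, of which none passed. No blister collagen had an unadjusted p under 0.05. Of 14 cuticlin-like genes tested 3 fell: cutl-25 from 3.42, 1.74 and 2.26 CPM to 1.17, 0.436 and 0.881 CPM (log2 fold change -1.61 ± 0.37, adjusted p = 0.0216), cutl-2 by 1.21 (SE 0.31, adjusted p = 0.0342) and cutl-18 by 1.03 (SE 0.17, adjusted p = 0.00592). None of the 3 cuticlins tested passed.

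Other genes of the apical matrix fell as well, 6 of 13 tested. They were fbn-1, a fibrillin-like matrix protein (log2 fold change -2.02 ± 0.26, adjusted p = 0.00219), let-4 (-1.38 ± 0.19, adjusted p = 0.00279) and sym-1 (-1.35 ± 0.15, adjusted p = 0.00106), which encode leucine-rich repeat proteins, the lipocalin gene lpr-3, the zona pellucida gene let-653, and dex-1. The list's median was -0.89. Of 18 tested regulators and proteases of molting, 5 fell, among them the nuclear receptor gene nhr-25 (-1.44 ± 0.18, adjusted p = 0.00204), acn-1, an angiotensin-converting enzyme relative (-1.06 ± 0.18, adjusted p = 0.00807), and lin-29, a transcription factor of the larva-to-adult switch (-0.67 ± 0.16, adjusted p = 0.0268). Of 11 collagen-processing genes 2 fell, dpy-31, an astacin protease that cleaves procollagen (-0.87 ± 0.13, adjusted p = 0.00348), and phy-2, a prolyl 4-hydroxylase subunit (-0.59 ± 0.12, adjusted p = 0.0143). Of 14 genes known to respond to furrow damage, 1 rose, the antimicrobial peptide gene cnc-4 (2.39 ± 0.60, adjusted p = 0.0307).

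Markers of other tissues moved in the same libraries. Of 28 tested major sperm protein genes 20 fell, their sum being 112 to 177 CPM in fbf-2 against 226 to 338 CPM in WT. All 4 intestinal markers fell, with a sum of 1953 to 2098 CPM against 2879 to 3542. Of 7 epidermal markers 2 fell, elt-1 and pah-1, with a sum of 190 to 214 CPM against 207 to 241. The 8 early embryonic genes summed to 5.70 to 7.64 CPM against 7.38 to 11.1, and 0 of the 5 tested passed, with 1 lower at an unadjusted p under 0.05. The part of these shifts in the members' changes was not tested.

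The calls of noah-1, noah-2, mlt-7, mlt-11, dpy-3, dpy-14, dpy-17 and cutl-18 held without any 1 of the 6 libraries. sqt-3 lost its call without fbf-2 library 3, dpy-7 without WT library 2 or fbf-2 library 1 or 3, cutl-25 without WT library 3 or fbf-2 library 2 or 3, cutl-2 without WT library 3 or any fbf-2 library, and dpy-10 and mlt-3 without each library other than WT 1. The rise of mlt-3 was also lost with upper-quartile scaling (adjusted p = 0.0683), and the fall of cutl-2 with DESeq2 (adjusted p = 0.0743). Without fbf-2 library 3 the count of falls was 8, where 5.05% of all genes fell. With the replicate number as a block, since same-numbered libraries of these groups deviated together, dpy-2 also fell (-0.81, adjusted p = 0.0419). The falls then numbered 18, where 17.5% of all genes fell and 15.5% rose, against 10.1% and 5.51% without the block.

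**Figure D2:**
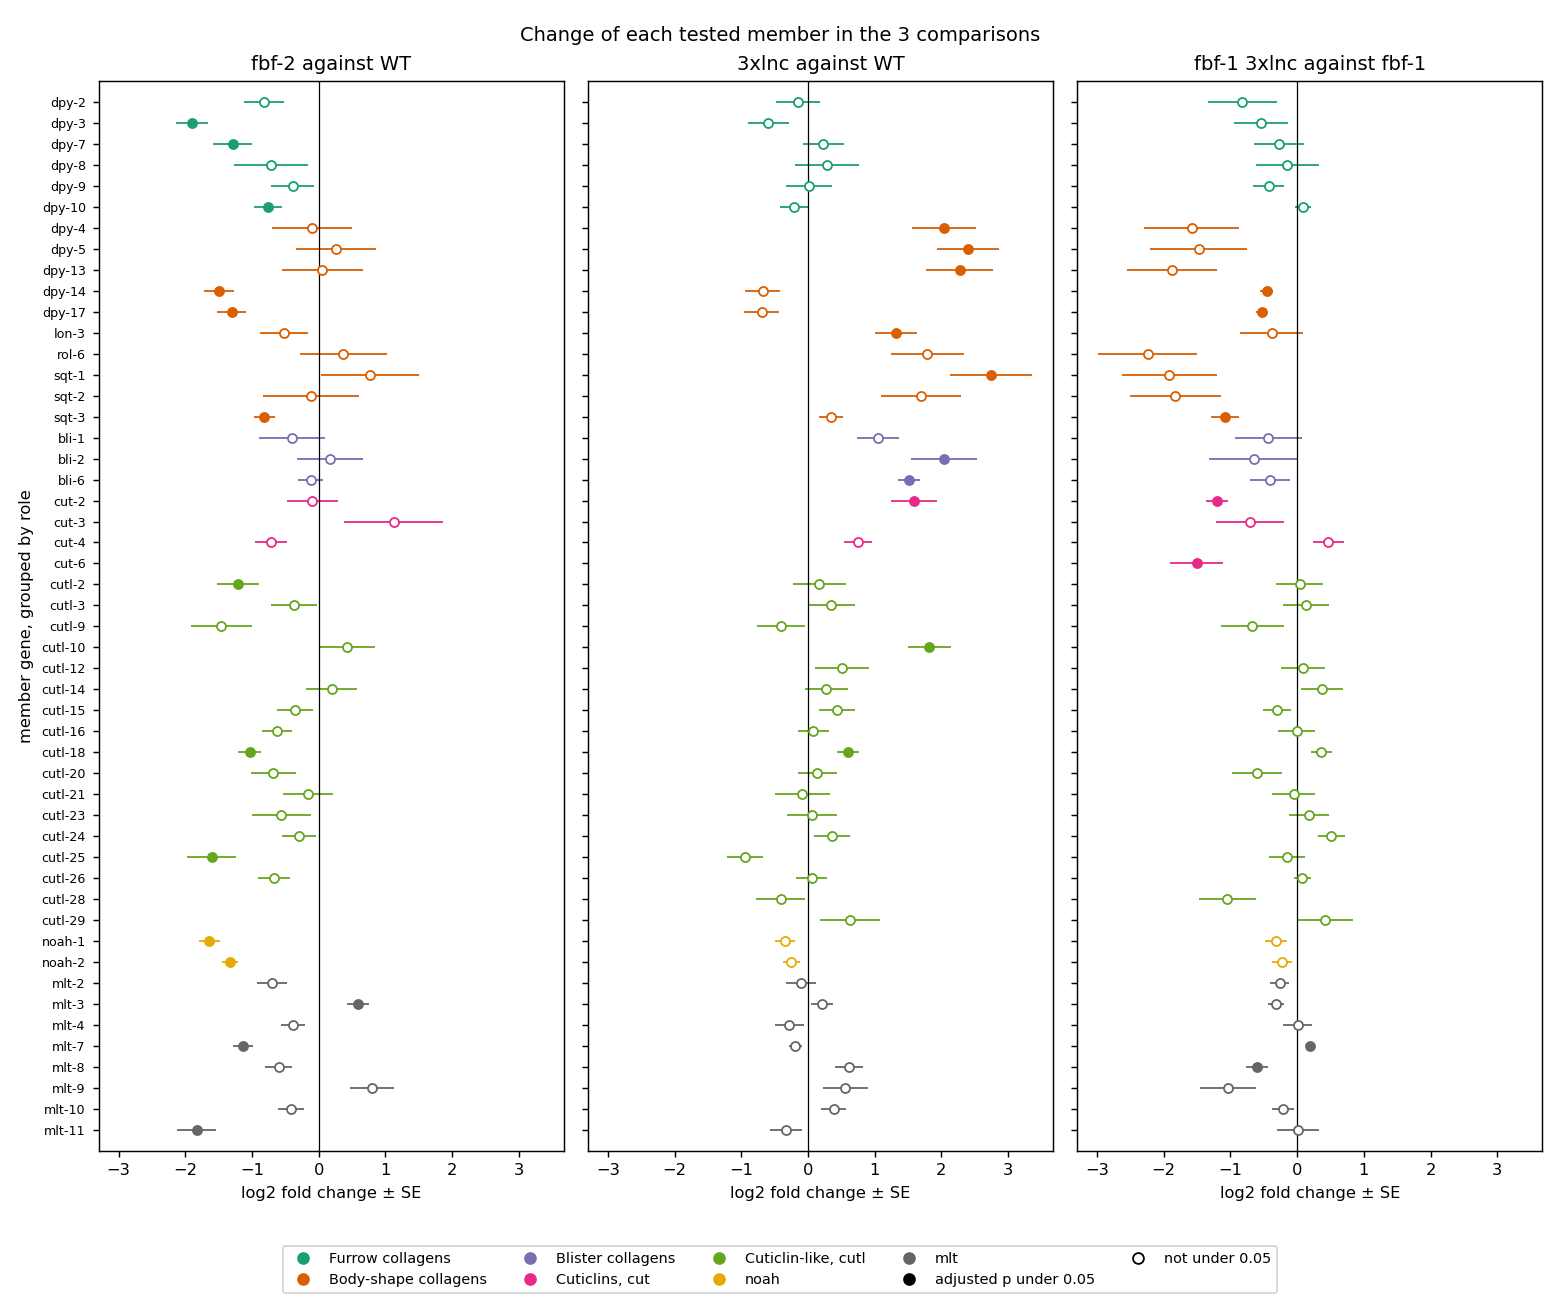
Log2 fold change ± SE (horizontal axes) of each tested member (rows, coloured by role) in fbf-2 against WT, 3xlnc against WT and fbf-1 3xlnc against fbf-1; filled points have an adjusted p under 0.05. The 13 falls in fbf-2 include both noah genes, the 10 rises in 3xlnc are 7 collagens, cut-2 and 2 cuticlin-like genes, and in fbf-1 3xlnc 6 members fell and 1 rose.

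The second comparison asked what differs when the 3 linc genes are mutated. Collagens of body shape and of the struts rose in 3xlnc: 5 of 10 and 2 of 3 passed the test, with log2 fold changes of 1.32 to 2.75. Of 48 members tested against WT, 10 rose and 0 fell, where 9.41% of all 13861 genes tested rose and 2.11% fell. At an unadjusted p under 0.05, 15 were higher and 4 lower, a threshold at which the share of all genes was not computed. DESeq2 called 1 lower, where 3.36% of all genes fell. The members' median log2 fold change was 0.28, and that of all genes was -0.02. Upper-quartile scaling gave 1765 rises and 145 falls over all genes, against 1304 and 292 here. Groups did not overlap for 17 members that were higher and 2 that were lower, against 23.1% and 10.6% of all genes.

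sqt-1 (chromosome II, 11336693 to 11337837, minus strand) stood at 1.76, 2.61 and 0.0502 CPM in the WT libraries and at 12.6, 10.7 and 7.13 CPM in 3xlnc. dpy-5 stood at 9.48, 6.63 and 1.36 CPM and at 32.3, 25.8 and 31.2 CPM. dpy-13 (chromosome IV, 4235614 to 4236710, plus strand) stood at 9.48, 13 and 1.66 CPM and at 43.5, 35.9 and 40.7 CPM. Every 3xlnc library was above every WT library for these genes, and WT library 3 was far below the other WT libraries. Their log2 fold changes were 2.75 ± 0.61 (adjusted p = 0.0214), 2.40 ± 0.46 (adjusted p = 0.0123) and 2.28 ± 0.50 (adjusted p = 0.0209). DESeq2 did not call sqt-1 (2.72, adjusted p = 0.116).

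dpy-4 (chromosome IV, 14985543 to 14986784, minus strand) had the same pattern, with 15.1, 16.7 and 2.61 CPM in WT and 49.2, 47.6 and 46.8 CPM in 3xlnc (log2 fold change 2.04 ± 0.48, adjusted p = 0.0257). lon-3, a collagen whose loss lengthens the body, rose from 1.1, 2.37 and 1.31 CPM to 5.31, 4.12 and 3.66 CPM (1.32 ± 0.31, adjusted p = 0.0260). rol-6 and sqt-2 were higher in every 3xlnc library than in any WT library but did not pass, with log2 fold changes of 1.79 ± 0.55 (adjusted p = 0.0630) and 1.69 ± 0.60 (adjusted p = 0.0970). The 3 body-shape collagens that fell in fbf-2 did not pass here: dpy-14 was at 12.5, 22.4 and 11.8 CPM in 3xlnc (-0.68 ± 0.26, adjusted p = 0.120), dpy-17 at 14.5, 26.6 and 14.1 CPM (-0.69 ± 0.27, adjusted p = 0.118), and sqt-3 at 50.6, 53.7 and 37.9 CPM (0.35 ± 0.18, adjusted p = 0.219).

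The blister collagens were high in 3xlnc. bli-6 (chromosome IV, 6377065 to 6378168, plus strand) rose from 16.9, 17.4 and 13.8 CPM in WT to 50.7, 37.6 and 52.9 CPM (log2 fold change 1.52 ± 0.17, adjusted p = 0.00143), and had the smallest adjusted p of the members in this comparison. bli-2 rose from 1.1, 1.84 and 0.351 CPM to 6.64, 4.87 and 2.84 CPM (2.04 ± 0.50, adjusted p = 0.0308). bli-1 was at 2.21, 5.91 and 3.51 CPM in WT and at 9.24, 10.1 and 6.97 CPM in 3xlnc, without overlap but short of the threshold (1.05 ± 0.31, adjusted p = 0.0582).

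cut-2 (chromosome V, 13414949 to 13416064, plus strand), a cuticlin gene, rose from 6.51, 5.03 and 1.76 CPM to 13.2, 11.5 and 14.8 CPM (log2 fold change 1.59 ± 0.35, adjusted p = 0.0204). Of 17 cuticlin-like genes 2 rose, cutl-10 from 0.441, 0.581 and 0.502 CPM to 1.96, 1.47 and 2.34 CPM (1.82 ± 0.32, adjusted p = 0.00939) and cutl-18 by 0.60 (SE 0.16, adjusted p = 0.0420). The WT counts of cutl-10 alone did not meet the low-count filter. None of the 6 furrow collagens passed. None of them had an unadjusted p under 0.05, their groups overlapped, and their median log2 fold change was -0.07. None of the noah and mlt genes passed, and at an unadjusted p under 0.05 1 noah gene was lower and 1 mlt gene higher. noah-1 was at 28.1, 42.2 and 28.7 CPM in 3xlnc (-0.35 ± 0.15, adjusted p = 0.152) and noah-2 was at 21.8, 28.3 and 23 CPM (-0.25 ± 0.12, adjusted p = 0.208).

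In the related lists, the adult cuticle collagens col-7 (log2 fold change 2.30 ± 0.29, adjusted p = 0.00252) and col-62 (2.32 ± 0.33, adjusted p = 0.00410) rose, 2 of 3. Of 11 collagen-processing genes 1 rose, the prolyl 4-hydroxylase gene phy-3 (1.13 ± 0.23, adjusted p = 0.0156). Of 19 regulators and proteases of molting 2 rose, the astacin protease genes nas-38 (1.96 ± 0.36, adjusted p = 0.00989) and nas-37 (0.52 ± 0.13, adjusted p = 0.0354). None of 12 other apical matrix genes passed, with 2 lower at an unadjusted p under 0.05. Among 14 furrow damage reporters the antimicrobial peptide gene nlp-30 rose and nlp-28 fell, by 1.06 on the log2 scale. Beside these, 25 of 28 major sperm protein genes rose (sum 430 to 600 CPM against 226 to 338 in WT) and the muscle gene tni-3 rose, with a sum of 4 muscle markers of 6085 to 6742 CPM against 2882 to 4719. The epidermal sum was 185 to 211 CPM against 207 to 241, and 0 of 7 epidermal markers passed, with 2 lower at an unadjusted p under 0.05. The part of these shifts was not tested.

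The count of rises changed with single libraries, as did the share of all genes that rose (in brackets), which was 9.41% with all libraries. It was 6 without WT library 3 (2.63%), 16 without WT library 1 (17.2%) and 14 without WT library 2 (8.79%). It was 2 without 3xlnc library 1 (2.56%), 5 without 3xlnc library 2 (6.45%) and 2 without 3xlnc library 3 (2.8%). bli-6 alone of the 10 kept its call in each of these fits. Without WT library 3, sqt-1 (log2 fold change 2.07, adjusted p = 0.0181), dpy-5 (1.87, adjusted p = 0.00234), dpy-13 (1.74, adjusted p = 0.00504), dpy-4 (1.52, adjusted p = 0.00207) and cut-2 (1.16, adjusted p = 0.0196) stayed past the threshold. bli-2, cutl-10, cutl-18 and lon-3 did not. sqt-1, dpy-4, lon-3 and cutl-18 lost their calls without any 1 of the 3xlnc libraries, and dpy-5, dpy-13 and cut-2 without 3xlnc library 1 or 3. With the replicate number as a block the rises again numbered 10, where 7.02% of all genes rose. bli-1 was among them (1.12, adjusted p = 0.0397) and cutl-18 was lost (0.61, adjusted p = 0.0670). Without WT library 1, which is the shallow one, noah-1, noah-2, mlt-7 and cutl-25 fell, 4 of 49 tested, where 16.4% of all genes fell.

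**Figure D3:**
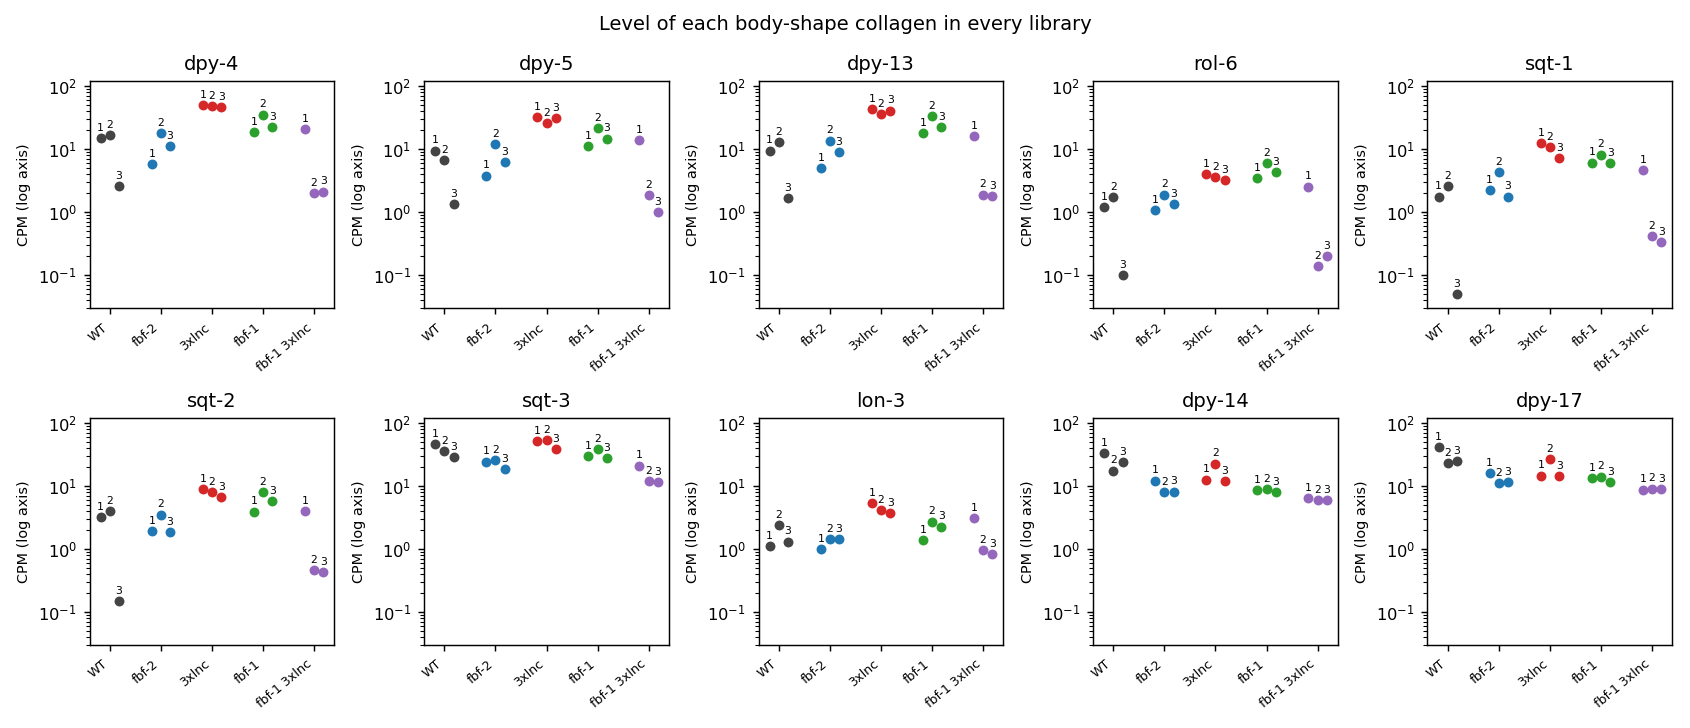
Level in CPM (vertical axes, log scale) of each of the 10 body-shape collagens in every library (points, with the library number). WT library 3 and libraries 2 and 3 of fbf-1 3xlnc were low for dpy-4, dpy-5, dpy-13, rol-6, sqt-1 and sqt-2, while dpy-14 and dpy-17 did not show that split.

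The collagens that separated the genotypes also separated libraries of 1 genotype. In WT, library 3 was at least 2-fold below both other libraries for 9 of 44 members with a mean of 10 counts or more, namely dpy-4, dpy-5, dpy-13, rol-6, sqt-1, sqt-2, dpy-8, bli-2 and cut-2, against 0.771% of 12844 genes. sqt-1 had 16, 54 and 1 counts in the 3 WT libraries, rol-6 11, 36 and 2, and sqt-2 29, 81 and 3. The noah genes were level across WT, with sums of 69.2, 66.3 and 71.4 CPM. The summed adult cuticle collagens of WT library 3, 1798 CPM, lay between those of libraries 1 and 2, 1651 and 2061. That sum is mostly col-19, at 1646, 2052 and 1794 CPM in the WT libraries. col-7 (2.76, 4.50 and 2.36 CPM) and col-62 (2.10, 4.65 and 1.91 CPM) were lowest in library 3.

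The third comparison asked what the linc mutations change in worms that already carry the fbf-1 mutation. In fbf-1 3xlnc 6 members fell and 1 rose against fbf-1, of 49 tested, where 8.49% of all 14104 genes tested fell and 9.43% rose. Groups did not overlap for 14 members that were lower and 3 that were higher, against 21.2% and 17.7% of all genes. The median log2 fold change of the members was -0.32, and that of all genes was 0.00.

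Library 1 of fbf-1 3xlnc stood apart from the other two. It was at least 2-fold above both for 16 of 46 members with a mean of 10 counts or more, against 6.15% of 14168 genes; the 16 were 7 body-shape collagens (dpy-4, dpy-5, dpy-13, rol-6, sqt-1, sqt-2 and lon-3), the 3 blister collagens, dpy-2, dpy-3, dpy-7 and dpy-8, and mlt-9 and mlt-11. The body-shape collagens summed to 102, 34.5 and 32.9 CPM in the 3 libraries and to 114, 175 and 124 CPM in fbf-1. Major sperm protein genes summed to 586, 249 and 259 CPM in the same 3 libraries, muscle markers to 5211, 4082 and 4083 CPM, and adult cuticle collagens to 1800, 1395 and 1433 CPM. Their part in the members' values was not tested. The columns of this group could be matched to the genotype but not to single samples, so the numbers only tell libraries apart.

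The members that fell with all 6 libraries were cut-2, cut-6, dpy-14, dpy-17, sqt-3 and mlt-8. cut-2 was at 7.0, 7.78 and 7.44 CPM in fbf-1 and at 3.88, 2.39 and 3.28 CPM in fbf-1 3xlnc (log2 fold change -1.20 ± 0.17, adjusted p = 0.00172). sqt-3 was at 29.4, 37.7 and 27.1 CPM and at 20.9, 11.8 and 11.4 CPM (-1.08 ± 0.21, adjusted p = 0.00996). For both genes every fbf-1 3xlnc library was below every fbf-1 library.

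dpy-17 was at 13.4, 14 and 11.4 CPM in fbf-1 and at 8.74, 9.02 and 8.86 CPM in fbf-1 3xlnc (log2 fold change -0.53 ± 0.09, adjusted p = 0.00633). dpy-14 was at 8.65, 8.88 and 7.93 CPM and at 6.47, 5.90 and 5.94 CPM (-0.46 ± 0.10, adjusted p = 0.0144). These 2 collagens varied little within each group, and library 1 did not stand apart for them. cut-6, a cuticlin known from the dauer larva, fell from 0.765, 1.06 and 0.702 CPM to 0.140, 0.351 and 0.365 CPM, on 4 to 27 counts a library (-1.51 ± 0.40, adjusted p = 0.0315), and mlt-8 fell by 0.60 (SE 0.17, adjusted p = 0.0367). The fbf-1 3xlnc counts of cut-6 alone did not meet the low-count filter. mlt-7 rose from 32.2, 31.7 and 31.5 CPM to 38.2, 35.2 and 34.5 CPM, a small change (0.19 ± 0.05, adjusted p = 0.0345).

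The other body-shape collagens had larger fitted falls that did not pass. dpy-4 was at 18.4, 35.2 and 22.2 CPM in fbf-1 and at 21.0, 2.04 and 2.12 CPM in fbf-1 3xlnc (log2 fold change -1.58 ± 0.71, adjusted p = 0.156). rol-6 was at 3.48, 5.98 and 4.34 CPM and at 2.55, 0.140 and 0.199 CPM (-2.24 ± 0.74, adjusted p = 0.0662), and sqt-1 at 6.12, 8.19 and 6.09 CPM and at 4.62, 0.421 and 0.332 CPM (-1.91 ± 0.72, adjusted p = 0.0973). Libraries 2 and 3 were low for all 3 genes, and library 1 lay among or just below the fbf-1 libraries.

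Without library 1 of fbf-1 3xlnc, 22 members fell and 0 rose in edgeR's quasi-likelihood test, where 9.57% of 14255 genes fell and 9.51% rose. At an unadjusted p under 0.05, 29 were lower and 1 higher, and the share of all genes at that threshold was not computed. The 22 that fell were all 10 body-shape collagens with a median log2 fold change of -3.50, the 3 blister collagens and both noah genes, with dpy-2, dpy-3, cut-2, cut-6, mlt-8, mlt-9 and mlt-11. In that fit the log2 fold change was -3.56 ± 0.27 for dpy-4 (adjusted p = 1.38e-06), -4.13 ± 0.25 for sqt-1 (adjusted p = 2.2e-07), -4.69 ± 0.36 for rol-6 (adjusted p = 1.82e-06) and -0.55 ± 0.09 for noah-1 (adjusted p = 0.00126). mlt-11 changed direction, from 0.02 with all libraries to -0.56 (adjusted p = 0.0025). The 2 libraries left are near each other, and the fit takes the spread of the group from them. The count of falls was 3 without fbf-1 library 1 or fbf-1 3xlnc library 3, where 3.45% and 5.02% of all genes fell. It was 4 without library 2 of fbf-1 or of fbf-1 3xlnc, where 5.11% and 4.91% fell, against 8.49% with all libraries. The calls of cut-2, dpy-17 and sqt-3 held without any 1 library. That of dpy-14 was lost without fbf-1 library 1 or fbf-1 3xlnc library 3, that of mlt-8 without fbf-1 library 1 or 2 or fbf-1 3xlnc library 2 or 3, and those of cut-6 and mlt-7 in 5 of the 6 fits. DESeq2 did not call cut-6 (adjusted p = 0.0557) or mlt-7 (adjusted p = 0.106), and upper-quartile scaling lost mlt-8 (adjusted p = 0.0509).

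In the related lists, none of 12 other apical matrix genes, 11 collagen-processing genes, 7 epidermal markers or 3 adult cuticle collagens passed. At an unadjusted p under 0.05, 1 collagen-processing gene and 1 epidermal marker were higher, 2 of each lower, and none of the apical matrix or adult cuticle genes. Of 19 regulators and proteases of molting, pan-1, a leucine-rich repeat protein (log2 fold change -0.52 ± 0.05, adjusted p = 0.000267), and the kinase gene nekl-2 fell, and blmp-1, a zinc finger transcription factor (0.39 ± 0.07, adjusted p = 0.00744), myrf-1 and nas-37 rose. Of 14 furrow damage reporters 4 fell, among them cnc-4 (-1.44 ± 0.35, adjusted p = 0.0244) and nlp-30 (-0.84 ± 0.24, adjusted p = 0.0413). Of 28 major sperm protein genes 27 rose. The epidermal sum was 204 to 215 CPM against 203 to 222 in fbf-1.

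The comparisons of fbf-2 and of 3xlnc with WT share the WT libraries, so the difference between the mutants was tested directly, on the 6 fbf-2 and 3xlnc libraries. Of 50 members tested 37 were higher in 3xlnc than in fbf-2 and 2 lower, where 34.2% of all 14045 genes were higher and 26.6% lower. The members' median log2 difference was 1.03. That of all genes was 0.10 and depended on the scaling, at 0.02 with RLE and 0.25 with upper-quartile scaling, under which 4247 genes were higher and 4440 lower, and 5854 higher and 2500 lower, against 4802 and 3732 here.

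All 10 body-shape collagens and all 3 blister collagens were higher in 3xlnc, the call of dpy-17 being lost without fbf-2 library 2 or 3 or 3xlnc library 2. dpy-13, at 5.01, 13.7 and 8.86 CPM in fbf-2 against 43.5, 35.9 and 40.7 CPM in 3xlnc, differed by 2.25 ± 0.25 (adjusted p = 1.51e-05), and bli-6, at 12.9, 20.7 and 15 against 50.7, 37.6 and 52.9 CPM, by 1.65 ± 0.17 (adjusted p = 9.78e-06). Groups did not overlap for either. Both noah genes were also higher, noah-1 by 1.30 ± 0.16 (adjusted p = 4.23e-05), and so were 5 of 6 furrow collagens. The largest differences among these were those of dpy-7, by 1.54 ± 0.29 (adjusted p = 0.000705) and dpy-3 by 1.32 ± 0.33 (adjusted p = 0.00437), with no overlap between groups. The calls of dpy-2 (0.68 ± 0.26, adjusted p = 0.0366), dpy-8 (1.02 ± 0.37, adjusted p = 0.0316) and dpy-10 (0.56 ± 0.20, adjusted p = 0.0303) were lost with the replicate number as a block (adjusted p = 0.0664, 0.0514 and 0.0558) and with DESeq2 (adjusted p = 0.125, 0.0801 and 0.0977). Their groups overlapped, RLE scaling lost dpy-2 and dpy-10 as well, and each was lost on leaving out some single libraries: dpy-2 without fbf-2 library 1 or 2 or 3xlnc library 2, dpy-8 without fbf-2 library 1 or 3xlnc library 1 or 2, and dpy-10 without library 2 of either group. cutl-18 and mlt-7 were higher by 1.65 ± 0.15 (adjusted p = 3.9e-06) and 0.96 ± 0.13 (adjusted p = 5.46e-05).

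Markers of some other tissues were higher in the same 3xlnc libraries. All 28 tested major sperm protein genes were higher, with sums of 430 to 600 CPM in 3xlnc against 112 to 177 in fbf-2, as were all 4 muscle markers (6085 to 6742 against 2655 to 3602 CPM), all 6 yolk genes (74775 to 82024 against 48204 to 59489 CPM), all 3 adult cuticle collagens (2319 to 2462 against 1652 to 1737 CPM) and 3 of 4 intestinal markers (3751 to 3905 against 1953 to 2098 CPM). Of 7 epidermal markers 2 were higher and 1 lower, and their sums overlapped. Of 4 neuronal markers 1 was higher and 2 lower, and of 5 germline markers 1 was higher and 1 lower. Among 4 tested early embryonic genes 0 passed. The part of these shifts in the members' differences was not tested.

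The 2 members called lower in 3xlnc were cut-3 and mlt-3. cut-3, a cuticlin known from the first larva, had 51, 12 and 21 counts in fbf-2 and 0, 2 and 4 counts in 3xlnc, which is 2.13, 0.654 and 0.974 CPM against 0, 0.0793 and 0.156 CPM (log2 difference -3.70 ± 0.65, adjusted p = 0.000414). It met the low-count filter only through the fbf-2 libraries, where it was high. A gene as low in both groups as cut-3 in 3xlnc would not have been tested. WT lay between, at 1.65, 0.290 and 0.151 CPM, and the test of fbf-2 against WT did not pass (1.13 ± 0.74, adjusted p = 0.318). For mlt-3 the log2 difference was -0.37 ± 0.12 (adjusted p = 0.0231). Its call was lost with upper-quartile scaling (-0.22, adjusted p = 0.150), with the replicate block (adjusted p = 0.0508) and without 3xlnc library 1 or 3.

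The last test asked whether the linc mutations change a gene by a different amount in the fbf-1 background than in WT. It ran over the 12 libraries of WT, 3xlnc, fbf-1 and fbf-1 3xlnc, with the RNA labels of each background kept within it. A difference between backgrounds therefore cannot be told apart from a difference between RNA labels. The change was lower in the fbf-1 background for 10 members and higher for 1, of 50 tested, where 3.66% of all 14772 genes had a lower and 2.54% a higher change. Of the 10, 6 were body-shape collagens. The noah genes and the furrow collagens gave no call, and none of these 8 genes had an unadjusted p under 0.05.

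For dpy-4, dpy-5, dpy-13 and sqt-1 the linc mutations went with a rise in the WT background and with a fitted fall, not past the threshold, in the fbf-1 background. The difference between the 2 changes was largest for sqt-1, at -4.66 ± 1.07 on the log2 scale (adjusted p = 0.0191), followed by dpy-13 (-4.16 ± 0.96, adjusted p = 0.0197), rol-6 (-4.03 ± 1.04, adjusted p = 0.0339), dpy-5 (-3.90 ± 0.98, adjusted p = 0.0297) and dpy-4 (-3.64 ± 0.98, adjusted p = 0.0427). The best separated was cut-2, which rose by 1.59 in WT and fell by 1.20 in fbf-1 (difference -2.79 ± 0.42, adjusted p = 0.00124). mlt-7 went the other way by a small amount (0.39 ± 0.10, adjusted p = 0.0360), a call that was lost in 11 of the 12 fits without 1 library, with upper-quartile scaling (adjusted p = 0.0708) and with no filter (adjusted p = 0.194). DESeq2 did not call the difference for sqt-1 (adjusted p = 0.0504), rol-6 (adjusted p = 0.0834) or dpy-4 (adjusted p = 0.0610), and dpy-4 was also lost with upper-quartile scaling (adjusted p = 0.0514).

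The lower changes numbered 7 without WT library 3, where dpy-4 (adjusted p = 0.0852), dpy-5 (0.0709) and rol-6 (0.0748) lost theirs. They numbered 15 without library 1 of fbf-1 3xlnc, where bli-1, bli-2, lon-3, sqt-2 and mlt-9 joined. Of all genes 2.28% and 4.44% had a lower change in these fits, against 3.66% with all 12 libraries. Without that library 1 the differences were larger, at -6.85 for sqt-1 (adjusted p = 0.000186), -6.45 for rol-6, -5.95 for dpy-13, -5.83 for dpy-5 and -5.59 for dpy-4 (adjusted p = 0.000234). The lower changes numbered 5 without 3xlnc library 1 or 3 or fbf-1 library 2. Of all genes 2.28%, 2.52% and 2.24% had a lower change there. dpy-4 and rol-6 lost theirs in 9 of the 12 fits without 1 library, dpy-5 in 6, cutl-10 in 4, dpy-13 in 3 (without 3xlnc library 1 or 3 or fbf-1 library 2) and sqt-1 in 1 (without 3xlnc library 1). cut-2, bli-6, sqt-3 and mlt-8 kept theirs without any 1 of the 12 libraries.

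**Figure D4:**
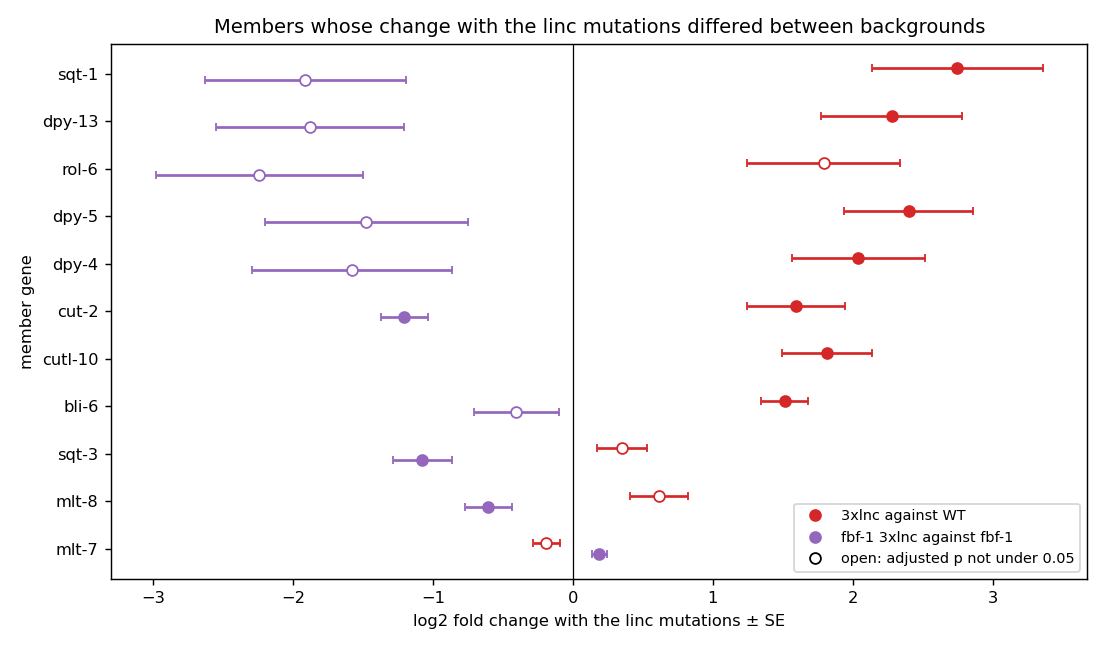
Log2 fold change ± SE with the linc mutations (horizontal axis) in the WT background (3xlnc against WT) and in the fbf-1 background (fbf-1 3xlnc against fbf-1) for the 11 members whose changes differed between the backgrounds; filled points have an adjusted p under 0.05, and cutl-10 was tested in the WT background only. For 10 of them the change was lower in the fbf-1 background, with differences of -1.21 (mlt-8) to -4.66 (sqt-1), and for mlt-7 it was higher.

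cut-2, cutl-18 and mlt-7 were called in opposite directions in 2 comparisons. cut-2 rose in 3xlnc and fell in fbf-1 3xlnc. cutl-18, at 5.51, 6.34 and 5.97 CPM in WT, fell in fbf-2 to 3.55, 3.10 and 2.97 CPM and rose in 3xlnc to 8.08, 9.31 and 10.8 CPM, 2 comparisons that share their control. mlt-7 fell in fbf-2 and rose in fbf-1 3xlnc. The rises of cut-2, cutl-18 and mlt-7 lost their calls in 2, 4 and 5 of 6 fits without 1 library. DESeq2 did not call that of mlt-7. The other 3 members with 2 calls, dpy-14, dpy-17 and sqt-3, fell in both fbf-2 and fbf-1 3xlnc.

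For some pairs of members the ratio varied less over the 15 libraries than the levels did. These pairs were chosen after their values were seen, and the points share libraries and depth. The ratio of dpy-4 to dpy-13 lay between 0.983 and 1.59, while dpy-4 ranged from 2.04 to 49.2 CPM and dpy-13 from 1.66 to 43.5 CPM, spans of 24.2 and 26.3 times. The genes lie far apart on chromosome IV and both encode cuticle collagens. The ratio of dpy-5 to dpy-13 lay between 0.511 and 1.0, while that of bli-6 to dpy-13 ranged from 0.704 to 8.33. The ratio of dpy-17 to dpy-14 lay between 1.04 and 1.58, with spans of 4.73 and 5.63 times, and that of noah-1 to noah-2 between 0.990 and 1.61, with spans of 3.31 and 2.60 times.

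Genes that are neighbours did not always keep a ratio. dpy-10 (chromosome II, 6710149 to 6712227, minus strand) and dpy-2 (chromosome II, 6714292 to 6715971, plus strand) are transcribed away from each other across a gap of 2064 bases and both encode furrow collagens, yet their ratio ranged from 1.73 to 13.1. The highest ratios were in libraries 2 and 3 of fbf-1 3xlnc, where dpy-2 was at 0.632 and 0.431 CPM and dpy-10 at 5.30 and 5.64 CPM. How reads were counted over the stretch that dpy-10 shares with T14B4.19 is not stated, and the part of that stretch in the ratio was not tested.

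**Figure D5:**
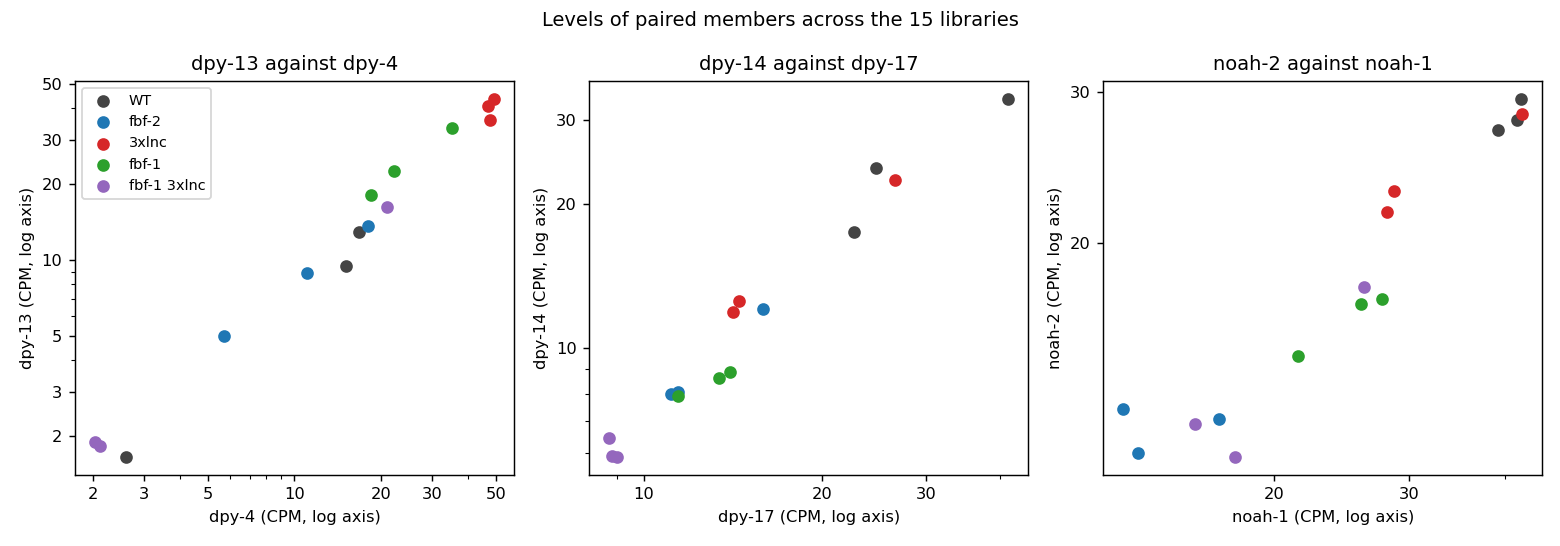
Level of dpy-13 against dpy-4, of dpy-14 against dpy-17 and of noah-2 against noah-1 in the 15 libraries (CPM, both axes on a log scale; each point is a library, coloured by genotype). The points of each pair lie along a line, with ratios of 0.983 to 1.59, 1.04 to 1.58 and 0.990 to 1.61, and the order of the genotypes along it differs between the pairs.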

How the data were processed

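Raw counts per gene were read from the tables the authors deposited, whole numbers over 46904 gene identifiers; per the submitters' processing notes the tools were STAR 2.7.9a, featureCounts, Subread 2.0.1 and DESeq2 1.34.0 with the genome build WBcel235, without stated settings. The tables' 18 normalised columns and the authors' fold changes were left aside. Columns were matched to samples by name; those of fbf-1 3xlnc could be matched to the group only. Gene names that had been turned into dates, 11 in number, were read from another deposited file. Positions come from the WBcel235 annotation, release 115, which held 46817 of the identifiers. No sequence is shown, because no genome or sequence table was used here.

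In R 4.3.3, edgeR 4.0.16 ran filterByExpr, TMM scaling and the quasi-likelihood F test on the 6 libraries of each comparison (12 for the difference between backgrounds), with Benjamini-Hochberg adjustment over all genes tested. Fold changes are mutant over control, with the SE of the log2 value; levels are CPM of total counts with SD over 3 libraries. Members, lists and tests were chosen with earlier results of these data known. Named members are the 3 with the smallest adjusted p in each role, all furrow collagens, both noah genes and members called in opposite directions, 23 in all, and 10 more named after their values were seen. Beyond these, mlt-9 is named where a count includes it, mlt-10 and cutl-20 for their exon overlaps, and cut-1 and cut-5 as untested. The alternatives changed the scaling (RLE, upper quartile), the filter (none, or blind to group), the tool (DESeq2 1.42.0), the replicate block, or left out each library in turn.

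Same-numbered fbf-2 and WT libraries deviated together, with correlations across genes of 0.423, 0.275 and 0.215, from the values and not from a stated batch. fbf-2 library 3 correlated as well with WT library 2 (0.216). Those of 3xlnc and WT (0.017, 0.085 and -0.086) and of 3xlnc and fbf-2 (-0.168, -0.104 and -0.144) did not deviate together by number. Replicates differed by more than sampling noise, the smallest chi-square over its degrees of freedom being 5.83 for any pair. On simulated counts with 200 genes changed, the fbf-2 procedure found 70% of genes changed 2-fold and 98% of those changed 4-fold among 13124 genes; for 3xlnc the shares were 72% and 98% among 13280, for fbf-1 3xlnc 68% and 98% among 13739, and for the difference between backgrounds 46% and 92% among 14510. Floors of 3 counts cover counting error only.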

Additional observations from a re-analysis of the deposited data

Results flagged for a closer look

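For 11 members the change with the linc mutations differed between the WT and fbf-1 backgrounds, by a test of the difference itself over 12 libraries. On the log2 scale the difference, fbf-1 background minus WT background, was -4.66 for sqt-1, -4.16 for dpy-13, -4.03 for rol-6, -3.90 for dpy-5, -3.64 for dpy-4, -2.79 for cut-2, -2.34 for cutl-10, -1.92 for bli-6, -1.43 for sqt-3, -1.21 for mlt-8 and 0.39 for mlt-7. The 5 largest belong to collagens that were low in WT library 3 and high in library 1 of fbf-1 3xlnc, and without WT library 3 the differences of dpy-4, dpy-5 and rol-6 were -3.12, -3.37 and -3.40 and no longer passed. Without library 1 of fbf-1 3xlnc the 5 differences were larger, -6.85 for sqt-1, -6.45 for rol-6, -5.95 for dpy-13, -5.83 for dpy-5 and -5.59 for dpy-4. DESeq2 did not call those of sqt-1, rol-6 and dpy-4, and that of mlt-7 was lost in 11 of the 12 fits without 1 library. The part of these libraries beyond those values was not tested. That of the RNA label, which separates the backgrounds, cannot be told apart from that of the background.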

How the results depend on the processing

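Of 72 called values of named members, 70 kept their call with RLE scaling, 67 with upper-quartile scaling, 72 with a filter blind to group, 71 with no filter, 62 with DESeq2 and, of 54 that could be blocked, 49 with a replicate block. Leaving out 1 library kept 379 of 498, and none changed direction. Counts that moved by over 1.5 times were: with upper-quartile scaling, 0 rises in fbf-2, 1 member lower in 3xlnc than in fbf-2 and 0 higher changes between backgrounds; with RLE scaling, 1 fall in 3xlnc; with no filter, 4 falls in 3xlnc, 13 falls in fbf-1 3xlnc and 0 higher changes between backgrounds; with DESeq2, 1 fall in 3xlnc and 0 rises in fbf-1 3xlnc. With no filter 1.80% of all genes fell in 3xlnc and 5.72% in fbf-1 3xlnc. The causes were not tested. With TMM library sizes the cuticlin sum in fbf-1 was 11.3 CPM and the cuticlin-like sum in fbf-2 19.3 CPM, and 38 other sums moved by less than their SD.

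With the replicate block, falls in fbf-2 numbered 18 and rises 1, with shares of 17.5% and 15.5% over all genes. In 3xlnc rises numbered 10 and falls 0, with shares of 7.02% and 0.981%, and the call of cutl-18 was lost. In 3xlnc against fbf-2, 32 members were higher and 1 lower, with shares of 31.9% and 24.4%. The calls of mlt-3, dpy-2, dpy-8 and dpy-10 were lost there. Same-numbered libraries of 3xlnc did not deviate together with those of WT or fbf-2. No paired analysis was possible for fbf-1 3xlnc because its columns could not be matched to single samples.

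Leaving out each library moved the counts of members and the shares of all genes (in brackets). It gave 8 to 15 falls (3.68% to 18.1%) and 0 to 2 rises (1.37% to 18.4%) in fbf-2. In 3xlnc it gave 2 to 16 rises (2.56% to 17.2%) and 0 to 4 falls (0.241% to 16.4%). In fbf-1 3xlnc it gave 3 to 22 falls (3.45% to 9.57%) and 0 to 1 rises (4.45% to 9.51%). In 3xlnc against fbf-2, 29 to 35 members were higher (29.5% to 31.9%) and 1 to 2 lower (at least 22.6%). Between backgrounds 5 to 15 changes were lower (2.24% to 7.92%) and 0 to 1 higher (1.33% to 10.4%). Values without a call that changed sign were dpy-9 in fbf-2 (-0.65 to 0.067) and mlt-11 in fbf-1 3xlnc (-0.56 to 0.25). Low counts, such as those of sqt-1, rol-6, sqt-2, cut-3 and cut-6, limit the smallest change that could be found.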
